A study of Mus musculus with 30 samples.

Results

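The genes described here are 9 that buffer ATP in muscle, namely the enzymes and the carrier of the creatine system (GATM, GAMT, SLC6A8, CKM, CKMT2 and CKB), the adenylate kinase AK1 and the AMP deaminases AMPD1 and AMPD3. They were taken by gene symbol from a table of 21073 genes, and all 9 were found in it. EDL muscle, the fast extensor digitorum longus of the hind limb, was taken from 30 female wild-type SJL mice for RNA-Seq, with 5 mice in each of 6 groups. EAE-induced mice had received the PLP139-151 peptide of myelin proteolipid protein, with serine at position 140, in complete Freund's adjuvant (CFA) under the skin and without pertussis toxin, which gives a mild relapsing-remitting disease. OVA-immunized mice had received ovalbumin in the same adjuvant, and unimmunized mice (Ctrl) had received neither antigen nor adjuvant. Muscles were taken on day 14, at the peak of EAE, and on day 40, in its second remission, from different mice. All groups shared the SJL background, a strain that carries a dysferlin mutation, and the ages of the mice are not given in the sources used here.

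Creatine kinases move a high-energy phosphate between ATP and creatine, so that phosphocreatine made at the mitochondria can restore ATP at the myofibrils. Adenylate kinase joins a pair of ADP molecules into ATP and AMP, and AMP deaminase removes AMP as IMP with release of ammonia, which pulls the adenylate kinase reaction toward ATP. Creatine itself is made by GATM and GAMT, mostly outside muscle, and enters the fibre through the carrier SLC6A8. In skeletal muscle CKM, CKMT2, AK1 and AMPD1 are the abundant forms, whereas CKB and AMPD3 are better known from brain and smooth muscle and from red blood cells.

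The sequences before the start sites are shown for the gene with the highest level (CKM), for the one that fell most (CKMT2) and for the one that rose most (AMPD3). RefSeq start sites on GRCm38.p6 were given for 7 of the 9 genes, with 12 starts in all, and none was given for AMPD1 or SLC6A8. Coordinates here and below are those of RefSeq on GRCm38.p6, the assembly of mm10. The stretches lie within the 250 bases before a start, outside the exons of the annotation, and read 5′ to 3′ on the strand of the gene. They are chr7:19410844-19411024 (plus strand) for CKM, chr13:91876924-91877135 (minus strand) for CKMT2 and chr7:110772354-110772603 (plus strand) for AMPD3, where the second of its 3 starts lies in an intron of the longer transcripts. Capitals mark the E-box CANNTG and the forkhead core TGTTTA on either strand.
CKM: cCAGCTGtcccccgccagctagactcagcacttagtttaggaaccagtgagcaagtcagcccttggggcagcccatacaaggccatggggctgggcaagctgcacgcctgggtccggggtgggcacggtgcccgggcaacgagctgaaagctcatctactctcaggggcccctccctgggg
CKMT2: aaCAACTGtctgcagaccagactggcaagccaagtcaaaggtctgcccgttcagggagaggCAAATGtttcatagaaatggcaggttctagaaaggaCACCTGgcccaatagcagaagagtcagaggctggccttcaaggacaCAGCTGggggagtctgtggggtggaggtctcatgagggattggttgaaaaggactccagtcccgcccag
AMPD3: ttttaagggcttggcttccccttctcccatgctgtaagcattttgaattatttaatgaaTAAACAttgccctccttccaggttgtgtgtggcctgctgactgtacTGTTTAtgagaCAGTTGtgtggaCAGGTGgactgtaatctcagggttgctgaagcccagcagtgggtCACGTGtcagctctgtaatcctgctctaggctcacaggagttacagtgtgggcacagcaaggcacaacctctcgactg
An E-box CANNTG, the site of basic helix-loop-helix factors such as MyoD and myogenin, was in 9 of the 12 windows of 250 bases and in 66.2% of all 32851 windows of that length. The form CAGCTG was in 4 of the 12 windows (CKM, CKMT2 and the first and the second start of AK1) and in 13% of all windows. The forkhead core TGTTTA was in 1 of the 12 windows, at the start of AMPD3 shown here, with matches 191 and 145 bases before the start, and in 12.0% of all windows. These are matches of letters, and the gene-level table does not tell from which start the reads came.

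Each mouse had 18.2 to 24.7 M reads on genes by an estimate from single-read RPKM values, apart from EAE replicate 3 of day 14 with 31.6 M reads. AMPD3, the gene with the fewest reads, had about 107 reads in its lowest mouse and 3299 in its highest. The tissue label held against its markers, as the 10 fast fibre genes summed to 67147 to 110580 RPKM in Ctrl mice of day 14 and the 7 slow fibre genes to 1663 to 2879 RPKM. RPKM scale reads by exon length and library size, so levels can be set side by side between genes. In whole muscle, fewer fibres of a kind and less RNA per fibre cannot be told apart.

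In Ctrl mice of day 14 the 9 genes spanned more than 3 orders of magnitude. CKM, the cytosolic muscle creatine kinase, was the 13th most abundant gene of the table with 7429 ± 1092 RPKM (SD, n = 5). CKMT2, the creatine kinase of the muscle mitochondrion, followed at rank 44, AK1 at rank 66 and AMPD1, the deaminase of skeletal muscle, at rank 140. SLC6A8 (39.2 ± 7.88 RPKM), GAMT (30.8 ± 7.65 RPKM), CKB (17.8 ± 4.87 RPKM) and GATM (6.45 ± 0.954 RPKM) were far lower, and AMPD3 was lowest with 2.53 ± 0.994 RPKM (SD, n = 5 each).

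**Figure D1:**
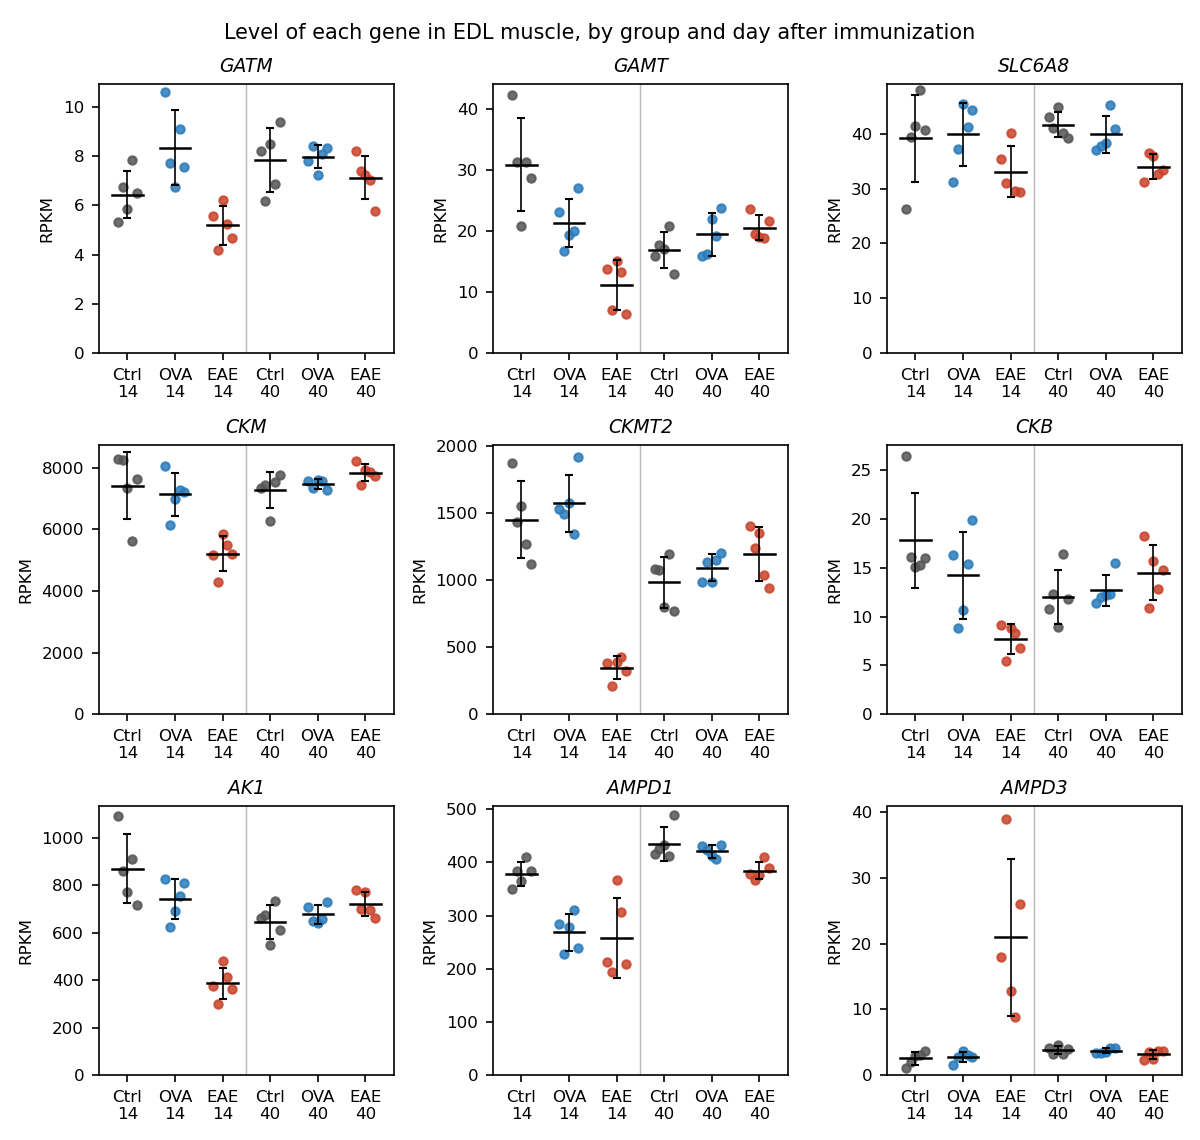
Level of each of the 9 genes in RPKM (vertical axes, starting at 0) in the 5 mice of each group on day 14 and day 40, with the mean as a bar and the SD as whiskers. On day 14 the EAE mice lie below every Ctrl mouse in the panels of CKMT2, CKB, GAMT and AK1 and above every other mouse in that of AMPD3. On day 40 the groups overlap, except that EAE mice lie below all others for SLC6A8 and below all Ctrl mice for AMPD1.

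EAE-induced mice were compared with Ctrl mice on day 14 to ask how the muscle differed at the peak of disease. A gene was called where limma gave an adjusted p (Benjamini-Hochberg) under 0.05 and its fold change exceeded 1.5. By this rule, 5 of the 9 genes were lower in EAE (CKMT2, CKB, GAMT, AK1 and AMPD1), and 1 was higher (AMPD3). Among all 8771 genes tested, 11.8% were called lower and 14.6% higher. The median difference of the 9 genes was -0.60 on the log2(RPKM + 0.1) scale, beside 0.11 for all genes tested. The groups did not overlap for 4 of the genes in the lower direction and for 1 in the higher, beside 11% and 21.2% of all genes. Against OVA mice, which share the adjuvant, 5 genes were again lower (CKMT2, CKB, GATM, GAMT and AK1) and AMPD3 was again higher, where 9.28% and 11% of 8674 genes were called. All EAE mice lay below all OVA mice for 5 of the genes (CKM, CKMT2, GATM, GAMT and AK1) and above them for AMPD3, beside 8.2% and 18% of all genes. Both comparisons use the same 5 EAE mice. AMPD3 entered both on day 14 through the EAE group, since its means in Ctrl and OVA mice were under the 3 RPKM required.

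GATM (Entrez 67092, chr2:122594473-122611277, minus strand), which makes guanidinoacetate from arginine and glycine, had 5.32, 6.75, 5.85, 7.83 and 6.49 RPKM in the 5 Ctrl mice of day 14. In OVA mice it had 10.6, 7.71, 6.77, 9.13 and 7.56 RPKM. Values in EAE mice were 5.57, 4.20, 6.23, 5.25 and 4.69 RPKM. EAE mice lay below every OVA mouse but overlapped with Ctrl mice. The difference from OVA was -0.67 ± 0.14 on the log2 scale (SE; adjusted p = 0.00164), a 1.59-fold lower level, and that from Ctrl was -0.31 ± 0.14 (adjusted p = 0.0807). Without OVA replicate 1, the highest mouse, the difference from OVA no longer passed the threshold.

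GAMT (Entrez 14431, chr10:80258151-80261025, minus strand) methylates guanidinoacetate to creatine. Its level was 42.2, 31.3, 20.8, 31.3 and 28.6 RPKM in Ctrl mice and 23.1, 16.8, 19.3, 20.0 and 27.1 RPKM in OVA mice of day 14. In EAE mice it was 13.7, 7.00, 15.0, 13.3 and 6.36 RPKM. All 5 EAE mice lay below all Ctrl and OVA mice, and OVA mice lay mostly below Ctrl mice with some overlap. GAMT was 2.87-fold lower in EAE than in Ctrl (log2 difference -1.52 ± 0.24, SE; adjusted p = 0.000148). It was 2.01-fold lower than in OVA (adjusted p = 0.00412).

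SLC6A8 (Entrez 102857, chrX:73673133-73682502, plus strand) carries creatine into the fibre with sodium and chloride. It had 26.4, 39.4, 41.5, 48.0 and 40.7 RPKM in Ctrl mice and 35.4, 31.0, 40.2, 29.5 and 29.3 RPKM in EAE mice of day 14. The groups overlapped, mainly through Ctrl replicate 1, which was the lowest of all 10. The difference of -0.23 on the log2 scale (95% interval -0.55 to 0.095; adjusted p = 0.226) did not pass the test. In OVA mice SLC6A8 had 31.3 to 45.4 RPKM, and EAE differed from them by -0.27 (adjusted p = 0.175).

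CKM (Entrez 12715, chr7:19411094-19421583, plus strand) had 8289, 8249.7, 7337, 5613 and 7653 RPKM in Ctrl mice. It had 8062, 6141, 6995, 7296 and 7226 RPKM in OVA mice and 5183, 4308, 5864, 5503 and 5199.5 RPKM in EAE mice of day 14. EAE mice lay below every OVA mouse, and below all Ctrl mice but replicate 4. The difference from Ctrl was -0.50 ± 0.14 on the log2 scale (SE; adjusted p = 0.00688), a 1.42-fold lower level that stayed under the fold threshold. Without Ctrl replicate 4 it passed that threshold (-0.60), and with quantile normalization, which gives every mouse the same distribution of values, it was -0.15 with adjusted p = 0.137. The annotation has A930016O22Rik on the opposite strand over 451 bases of CKM exons.

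CKMT2 (Entrez 76722, chr13:91853386-91876923, minus strand) had the largest decrease of the 9 genes. It had 1874, 1429, 1549, 1269 and 1118 RPKM in Ctrl mice and 1529, 1490.4, 1573, 1344 and 1916 RPKM in OVA mice of day 14. The 5 EAE mice had 381, 208, 387, 425 and 318 RPKM. The highest EAE mouse lay far below the lowest Ctrl mouse, whereas Ctrl and OVA mice overlapped throughout. CKMT2 was 4.27-fold lower than in Ctrl (log2 difference -2.09 ± 0.18, SE; adjusted p = 1.26e-06). It was 4.67-fold lower than in OVA (-2.22 ± 0.18; adjusted p = 8.93e-07). An overlap of 84 bases with 1700119I11Rik on the opposite strand is annotated.

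CKB (Entrez 12709, chr12:111669355-111672338, minus strand), the cytosolic form known from brain, was low in this muscle. It had 26.5, 16.2, 15.1, 15.3 and 16.0 RPKM in Ctrl mice and 16.4, 8.85, 10.7, 15.4 and 19.9 RPKM in OVA mice of day 14. Among EAE mice the values were 9.10, 5.48, 8.83, 8.31 and 6.83 RPKM. Ctrl replicate 1 stood above the other Ctrl mice, and OVA replicate 2 reached into the range of EAE. CKB was 2.28-fold lower in EAE than in Ctrl (-1.19 ± 0.22, SE; adjusted p = 0.000468) and 1.79-fold lower than in OVA (adjusted p = 0.00637).

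AK1 (Entrez 11636, chr2:32621758-32635058, plus strand), the cytosolic adenylate kinase, had 1092, 859, 773, 911 and 715 RPKM in Ctrl mice and 826, 623, 692, 753 and 809.9 RPKM in OVA mice of day 14. In EAE mice it had 374, 301, 479, 414 and 361 RPKM. All EAE mice lay below all others, and Ctrl and OVA mice overlapped. AK1 was 2.26-fold lower in EAE than in Ctrl (-1.17 ± 0.14, SE; adjusted p = 1.57e-05) and 1.93-fold lower than in OVA (adjusted p = 0.000106).

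AMPD1 (Entrez 229665, chr3:103073897-103099720, plus strand) turns AMP into IMP in adult fibres. It had 349, 383, 364, 411 and 384 RPKM in Ctrl mice and 284, 228, 278, 311 and 239.6 RPKM in OVA mice of day 14. The level in EAE mice was 213, 194, 367, 307 and 209 RPKM. Among the EAE mice, replicate 3 lay in the Ctrl range and replicate 4 in the OVA range, the other 3 lay below both, and every OVA mouse lay below every Ctrl mouse. The 1.51-fold lower level in EAE than in Ctrl (-0.60 ± 0.16, SE; adjusted p = 0.0066) was close to the fold threshold. It lost the call in 4 of 10 fits that left out 1 mouse (Ctrl replicate 4 or EAE replicate 1, 2 or 5) and with quantile normalization. Against OVA the difference was -0.09 (95% interval -0.43 to 0.25; adjusted p = 0.668).

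AMPD3 (Entrez 11717, chr7:110767790-110812409, plus strand), the form of red blood cells, had 1.08, 2.03, 2.88, 3.07 and 3.61 RPKM in Ctrl mice and 1.53, 2.69, 3.69, 3.07 and 2.81 RPKM in OVA mice of day 14. In EAE mice it had 18.0, 38.97, 12.7, 8.86 and 26.1 RPKM. Every EAE mouse lay above every other mouse, and the spread among the EAE mice was wide. AMPD3 was 7.53-fold higher in EAE than in Ctrl (2.91 ± 0.37, SE; adjusted p = 2.35e-05) and 6.68-fold higher than in OVA (2.74 ± 0.37; adjusted p = 4.63e-05). Of the markers of red blood cells, 4 of the 4 tested were called lower in EAE than in Ctrl, beside 11.8% of all genes. The 6 markers found summed to 26.5 to 189 RPKM in EAE mice. Their sum was 475 to 1587 RPKM in OVA mice and 189 to 684 RPKM in Ctrl mice. How these markers relate to the AMPD3 level was not tested. The annotation has exons of RNF141 and B430319F04Rik on the opposite strand over 195 and 196 bases of AMPD3 exons. It also has the miRNA gene Gm47282 on the same strand over 83 bases of them. For all overlaps with the opposite strand, whether strand was used in counting is not given in the sources used here.

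**Figure D2:**
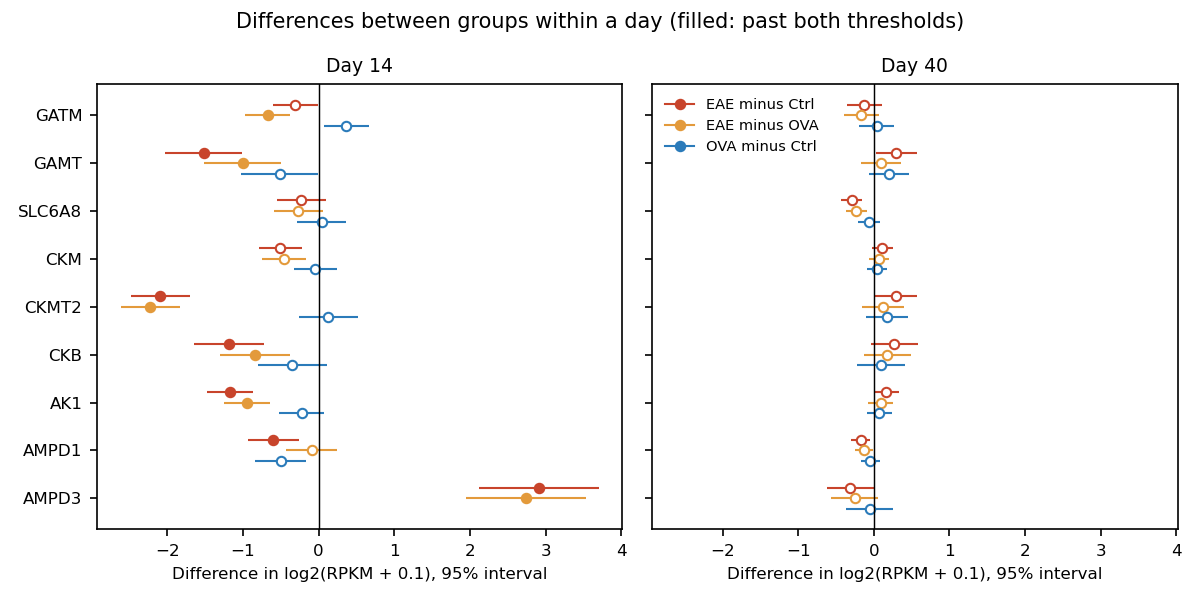
Differences between groups in log2(RPKM + 0.1) (horizontal axis) with their 95% intervals for each gene on day 14 (left) and day 40 (right), where filled points passed the adjusted p of 0.05 and the fold change of 1.5. On day 14 CKMT2 and AMPD3 lie farthest from 0 in both EAE comparisons, at -2.09 and 2.91 against Ctrl, and on day 40 no point is filled. AMPD3 has no point for OVA minus Ctrl on day 14, since it was not tested there.

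OVA and Ctrl mice of day 14 were compared to see what the adjuvant and a foreign antigen did without the myelin peptide. None of the 8 genes tested passed by limma, where 0.142% of 8471 genes did, and 3 had an unadjusted p below 0.05, as 9.69% of all genes had. These were AMPD1 (-0.50 on the log2 scale, adjusted p = 0.324), GAMT (-0.52, adjusted p = 0.507) and GATM (0.36, adjusted p = 0.405). For AMPD1 the groups did not overlap, as was so in the lower direction for 1.61% of all genes, and with all 30 mice in 1 model its adjusted p was 0.0447 with a fold change still under 1.5. CKMT2 differed by 0.13 between OVA and Ctrl (95% interval -0.26 to 0.52), an interval that does not reach the difference in EAE.

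The 5 EAE mice of day 14 differed among themselves in most of the genes. Replicate 2 was the lowest of the 5 in 6 of the 8 genes other than AMPD3 and had the highest AMPD3. Its CKMT2 was 14.4% of the Ctrl mean, whereas the other 4 mice had 22.0% to 29.4%. Replicate 3 was the highest in 6 of the 8 genes, and its AMPD1 was 97.1% of the Ctrl mean beside 51.3% in replicate 2. AMPD3 was 349.8% of the Ctrl mean in replicate 4 and 1538% in replicate 2.

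**Figure D3:**
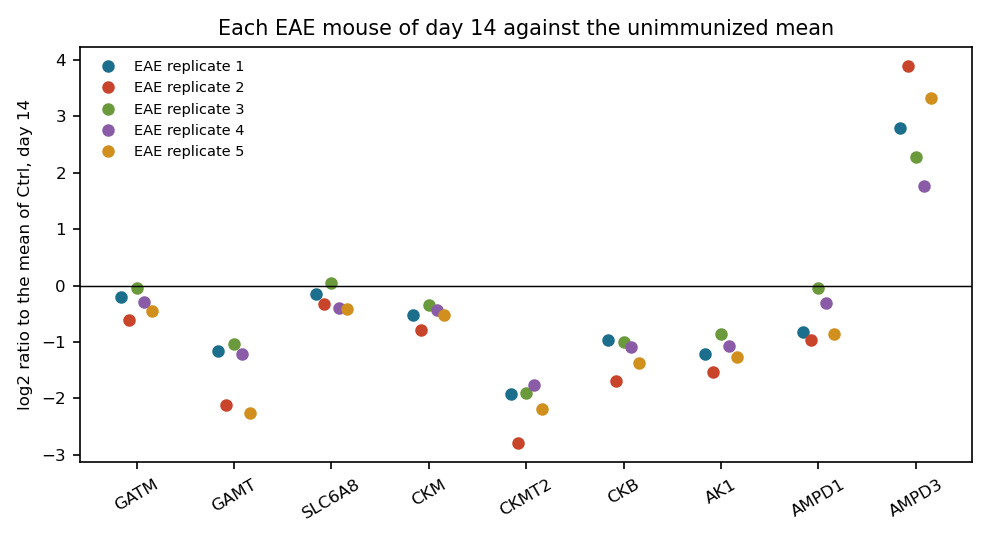
The 5 EAE mice of day 14 (colours) for each of the 9 genes, as the log2 ratio of the mouse to the mean of the Ctrl mice of day 14 (vertical axis). Replicate 2 is lowest in 6 genes and highest in AMPD3 (3.89), and replicates 3 and 4 are lowest in AMPD3 (2.28 and 1.77) and highest in AMPD1 (-0.04 and -0.30).

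Markers of denervated fibres were set beside AMPD3 in the single mice. The list held 8 genes, acetylcholine receptor subunits and MYOG among them, of which 3 were above 3 RPKM on average in Ctrl mice of day 14 (CHRNA1, MYOG and GADD45A) and the other 5 entered the test through the EAE group alone. The 3 were called higher in EAE than in Ctrl on day 14, where 14.6% of all genes were, with MYOG at 207 ± 122 RPKM beside 10.1 ± 1.34 RPKM (SD, n = 5 each). The sum of the 8 was 862, 1069, 346, 231 and 832 RPKM in EAE replicates 1 to 5. In Ctrl mice it was 62.7 to 77.6 RPKM. AMPD3 was also higher in replicates 1, 2 and 5 than in replicates 3 and 4. Replicate 1 had a larger sum than replicate 5 but less AMPD3 (18.0 beside 26.1 RPKM). The sum includes the 5 genes that, like AMPD3, entered through the EAE group, so this order is only a description. Fast fibre genes summed to 46132 to 66679 RPKM in EAE mice, below every Ctrl mouse, with 2 of 10 called lower and 3 of 7 slow fibre genes called lower, beside 11.8% of all genes. The fast myosins MYH4, MYH1 and MYH2 did not go with that sum, with means of 5820, 2059.6 and 487 RPKM in EAE and 5706, 1664 and 349 RPKM in Ctrl mice. Neutrophil markers summed to 199 to 391 RPKM in EAE, 62.6 to 225 RPKM in OVA and 3.43 to 9.11 RPKM in Ctrl mice, where all were under 3 RPKM on average. S100A8 carried most of that sum in EAE mice (225 ± 101 RPKM, beside 46.5 ± 24.4 RPKM in OVA, SD, n = 5 each), and the other 3 tested markers lay lower in EAE than in OVA without passing. Fibroblast and macrophage markers were called lower in EAE than in Ctrl for 4 of 5 and 4 of 6. The part of these markers in the differences of the 9 genes was not tested.

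The share of each form within its family was followed in the same mice. CKMT2 made up 18.4%, 14.7%, 17.4%, 18.4% and 12.7% of the summed RPKM of the 3 creatine kinases in Ctrl mice of day 14, and 6.84%, 4.60%, 6.18%, 7.16% and 5.76% in EAE mice. The sum itself was 8894 ± 1257 RPKM in Ctrl, 8729 ± 737 RPKM in OVA and 5563 ± 654 RPKM in EAE mice (SD, n = 5 each), and the groups did not overlap between EAE and the other two. AMPD3 was 0.658 ± 0.244% of the AMP deaminase RPKM in Ctrl, 1.03 ± 0.300% in OVA and 8.35 ± 5.78% in EAE mice of day 14 (SD, n = 5 each). It reached 16.7% in EAE replicate 2 and was 2.81% in replicate 4, so that AMPD1 stayed the main form in every mouse. These shares follow from the gene levels above and are given without a test.

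**Figure D4:**
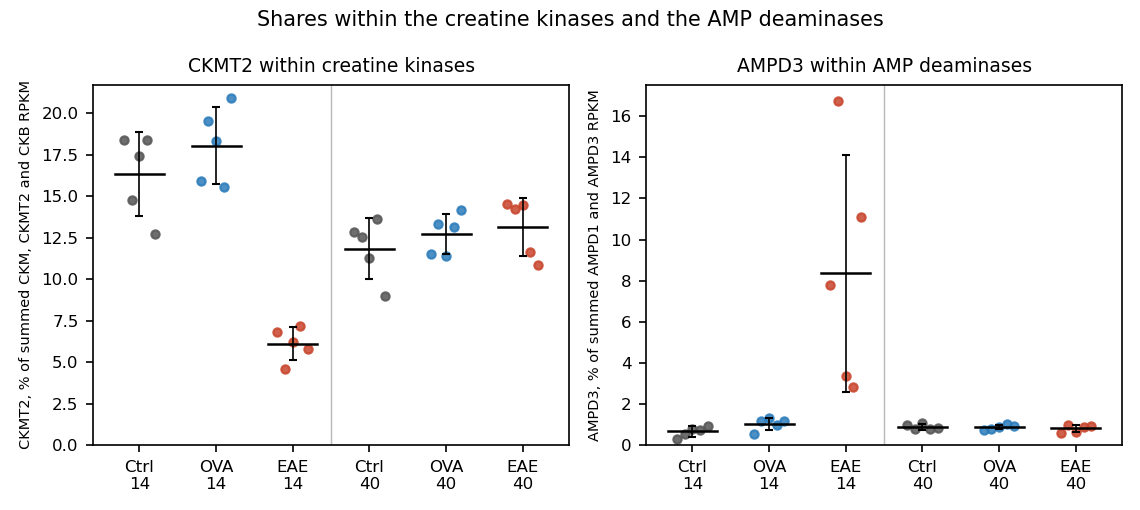
Share of CKMT2 in the summed RPKM of CKM, CKMT2 and CKB (left, %) and share of AMPD3 in that of AMPD1 and AMPD3 (right, %), for each mouse with the mean and SD of the group. The EAE mice of day 14 have the lowest CKMT2 shares (4.60% to 7.16%) and the highest AMPD3 shares (2.81% to 16.7%) of all 30 mice.

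On day 40 the groups were compared to ask what remained in the second remission. None of the 9 genes was called in any of the 3 comparisons, where 0.46% of 8691 genes were called between EAE and Ctrl, 0.209% of 8598 between EAE and OVA and 0% of 8706 between OVA and Ctrl. An unadjusted p below 0.05 was reached by 6, 2 and 0 of the 9 genes in these comparisons, beside 27.9%, 17.4% and 3.12% of all genes. CKMT2 was 1193 ± 198 RPKM in EAE, 1091 ± 99.3 RPKM in OVA and 982 ± 189 RPKM in Ctrl mice (SD, n = 5 each), with overlapping values and a difference between EAE and Ctrl of 0.29 (95% interval 0.01 to 0.57; adjusted p = 0.17). AMPD3 was 3.13 ± 0.687 RPKM in EAE and 3.86 ± 0.585 RPKM in Ctrl mice, also with overlap. Its difference was -0.31 on the log2 scale (95% interval -0.62 to -0.004; adjusted p = 0.176).

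SLC6A8 and AMPD1 were the genes of the 9 whose EAE and Ctrl values did not overlap on day 40, both lower in EAE, as was so for 4.51% of all genes. SLC6A8 had 43.0, 41.2, 44.9, 40.1 and 39.2 RPKM in Ctrl mice and 37.0, 37.9, 38.4, 45.3 and 40.9 RPKM in OVA mice. In EAE mice it had 31.2, 36.6, 36.0, 32.7 and 33.3 RPKM. EAE mice lay below all 10 others, but the 1.23-fold lower level against Ctrl (-0.30 ± 0.07, SE; adjusted p = 0.0397) stayed under the fold threshold. Its adjusted p ranged from 0.0157 to 0.352 over the alternative settings, and against OVA, where the groups did not overlap either (4.9% of all genes in this direction), it was 0.118. AMPD1 was 385 ± 16.7 RPKM in EAE and 435 ± 31.8 RPKM in Ctrl mice (SD, n = 5 each), a 1.13-fold lower level with adjusted p = 0.0839. The denervation markers summed to 51.3 to 88.3 RPKM over the 15 mice of day 40.

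Between the days, different mice were compared within each treatment, and the mice of day 14 are those of the comparisons above. In EAE mice 6 of the 9 genes were higher on day 40 than on day 14 (CKM, CKMT2, CKB, GAMT, AK1 and AMPD1) and AMPD3 was lower, where 8.36% and 12.7% of 8709 genes were called. CKMT2 was 3.53-fold higher (1.82 ± 0.17 on the log2 scale, SE; adjusted p = 1.17e-09) and AMPD3 5.83-fold lower (-2.54 ± 0.30; adjusted p = 8.16e-08). CKM was 1.51-fold higher and AMPD1 1.54-fold higher, both near the fold threshold, and the calls were lost in 2 of 10 and 3 of 10 fits that left out 1 mouse (EAE replicate 2 of day 14 or replicate 1 of day 40 for CKM, and EAE replicates 1, 2 or 5 of day 14 for AMPD1). The CKM difference was 0.12 with quantile normalization.

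The control groups also differed between the days. In OVA mice AMPD1 was higher on day 40, with 406 to 433 RPKM beside 228 to 311 RPKM on day 14 (1.58-fold; adjusted p = 0.000731), where 2.25% of 8648 genes were called higher and 7.02% were higher without overlap. CKMT2 was lower in OVA mice on day 40 without overlap (-0.52; adjusted p = 0.0446), as were 3.89% of all genes, but by less than 1.5-fold. In Ctrl mice GAMT was 1.80-fold lower on day 40 (16.9 ± 2.89 beside 30.8 ± 7.65 RPKM, SD, n = 5 each; adjusted p = 0.00508), where 4.35% of 8788 genes were called lower. CKMT2 (-0.56; adjusted p = 0.0158), CKB (-0.55; adjusted p = 0.0336) and AK1 (-0.42; adjusted p = 0.00996) were lower in Ctrl mice of day 40 by less than 1.5-fold, where AK1 turned to 0.03 with quantile normalization. CKMT2 and CKB passed the fold threshold with median-of-ratios scaling (-0.65 and -0.64) and in fits without single Ctrl mice (replicates 4 and 5 of day 14 and 1, 2 and 4 of day 40 for CKMT2, replicates 3 and 4 of day 14 and 4 of day 40 for CKB), and AMPD3 passed as higher without replicate 5 of day 14 (0.83). AMPD1 was higher in Ctrl mice of day 40 without overlap (412 to 490 RPKM, beside 349 to 411 RPKM), as were 6.73% of all genes. Its difference of 0.20 on the log2 scale did not pass by limma (adjusted p = 0.19). CKMT1, the mitochondrial form of other tissues and singled out after its values were seen, was at 0 to 0.225 RPKM in the 15 mice of day 14 and at 1.09 to 1.99 RPKM in those of day 40, in all treatments. Day and everything else that differed between these sets of mice cannot be told apart.

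The interaction of treatment and day was tested with all 30 mice in 1 limma model, without a fold threshold. The difference between EAE and Ctrl changed from day 14 to day 40 for 7 of the 9 genes, 6 upward and AMPD3 downward, where 16.5% of 9013 genes changed upward and 32.1% downward. It changed most for CKMT2 (2.38 ± 0.23 on the log2 scale, SE; adjusted p = 2.98e-08) and AMPD3 (-3.22 ± 0.42; adjusted p = 1.37e-06). For AMPD1 it changed by 0.42 ± 0.17 (adjusted p = 0.0422), which was lost in 14 of 20 fits that left out 1 mouse. The difference between EAE and OVA also changed for 7 genes, with GATM in place of AMPD1, where 11.1% of 8935 genes changed upward and 24% downward. GATM was lost there in 6 of 20 such fits (OVA replicates 1 and 4 and EAE replicates 2 and 5 of day 14, OVA replicate 3 and EAE replicate 1 of day 40). With quantile normalization CKM changed by 0.07 against Ctrl and 0.05 against OVA, and AMPD1 by 0.19 against Ctrl, none of which passed. Without the filter on low values CKM and GATM against OVA and AMPD1 against Ctrl were lost. None of the 9 changed between OVA and Ctrl, as 0% of 8848 genes did by limma, and 2 of the 9 had an unadjusted p below 0.05 (GAMT and AMPD1). SLC6A8 did not pass in any of the 3.

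Ordered by the group means, CKMT2 was highest in OVA mice of day 14, followed by Ctrl mice of day 14, EAE, OVA and Ctrl mice of day 40 and EAE mice of day 14. Each neighbour overlapped with the next in this order except for the last step, from 765 to 1191 RPKM in Ctrl mice of day 40 to 208 to 425 RPKM in EAE mice of day 14. AMPD3 was highest in EAE mice of day 14, and the other 5 groups followed with means of 2.53 to 3.86 RPKM, overlapping from each to the next. AK1 had the same last step, with 546 to 733 RPKM in Ctrl mice of day 40 and 301 to 479 RPKM in EAE mice of day 14.

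Across the 30 mice, which fall into 6 groups and mostly share the contrast of the EAE mice of day 14 with the rest, AMPD3 ran against AK1 (Pearson's r = -0.951), CKMT2 (r = -0.947) and CKM (r = -0.859) on the log2 scale. CKMT2 and AK1 ran together (r = 0.941), as did CKB and AK1 (r = 0.903), whereas SLC6A8 had r of at most 0.452 with any of the other genes. Within the EAE mice of day 14 the mouse with more AMPD3 had less CKMT2 in every case, from 8.86 and 425 RPKM in replicate 4 to 38.97 and 208 RPKM in replicate 2. These correlations are descriptions, with the group differences in them.

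**Figure D5:**
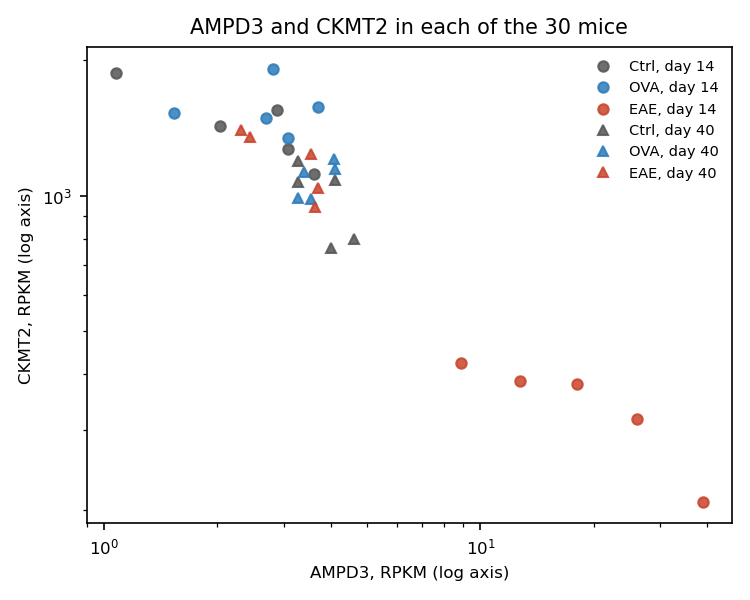
AMPD3 (horizontal, RPKM) against CKMT2 (vertical, RPKM), both on log axes, for each of the 30 mice, with colour for treatment and symbol for day. The 5 EAE mice of day 14 lie apart at 8.86 to 38.97 RPKM of AMPD3 and 208 to 425 RPKM of CKMT2, and their CKMT2 falls as AMPD3 rises.

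Of 9049 genes, those most like each of the 9 over the 30 mice were named by Pearson's r. For CKMT2 these were MDH1 (0.982), ROM1 and MDH2 (0.976), where MDH1 and MDH2 are the cytosolic and the mitochondrial malate dehydrogenase. For AK1 they included FAM213B (0.981) and LDHA (0.964), the muscle subunit of lactate dehydrogenase. For AMPD3 they were SPG20 (0.974), PVR and GPRC5B (0.968), and for CKM they were MYOZ1 (0.923), EMID1 and RIIAD1. For AMPD1 they were ABHD14B (0.902), GDAP1 and KLHL31, and for CKB they were ANXA2 (0.940), CAPZB and TPPP3. For GAMT they were RAB3A (0.927), PCOLCE and TPPP3. SLC6A8 (ACSS1, 0.853) and GATM (SEPP1, 0.850) had the least similar first neighbours.

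Other genes around these reactions were counted in lists. Of 15 tested genes of the purine nucleotide cycle and of purine salvage and breakdown, 2 were higher (HPRT and IMPDH1) and 3 lower (ADSSL1, PNP and SLC29A1) in EAE than in Ctrl on day 14, with a median difference of -0.03 beside 0.11 for all genes tested. Of all genes tested 14.6% were higher and 11.8% lower, which is the background for this list and the next 4. ADSSL1, which returns IMP toward AMP in the muscle purine nucleotide cycle, was 0.617 times the Ctrl level (-0.70 ± 0.10 on the log2 scale, SE; adjusted p = 5.13e-05). HPRT, which salvages hypoxanthine to IMP, was 2.19-fold higher (adjusted p = 6.86e-05), and IMPDH1, which draws IMP toward guanine nucleotides, was 1.88-fold higher (adjusted p = 5.76e-05). AMPD2, the remaining AMP deaminase, had group means of 2.05 to 2.79 RPKM and was not tested.

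Among 10 tested nucleoside phosphate and creatine kinases outside the 9 genes, AK4, a mitochondrial adenylate kinase, was lower in EAE than in Ctrl on day 14 (-0.80 ± 0.13, SE; adjusted p = 0.000175) and none was higher. Of 6 genes that exchange ATP and phosphate across the mitochondrial membranes, SLC25A4, the adenine nucleotide carrier of muscle, was lower (-0.87 ± 0.16, SE; adjusted p = 0.000578), and the list had a median of -0.39. Its difference from Ctrl changed by 1.11 between the days (limma interaction, adjusted p = 2.17e-05). In that test, which had no fold threshold, 5 of the 6 genes changed upward, beside 16.5% of 9013 genes. Of 7 subunits of AMPK, the kinase that senses AMP, PRKAG1 was lower (-0.90 ± 0.20, SE; adjusted p = 0.00163). Of 5 tested genes that supply methyl groups for creatine synthesis, MTR was higher (0.76 ± 0.29, SE; adjusted p = 0.0403), but it entered the test through the EAE group (4.12 RPKM on average, beside 2.41 RPKM in Ctrl mice). The counts of 1 of 10 kinases, 1 of 6 exchange genes and 1 of 7 AMPK subunits lower are near the share of all genes. So is that of 2 of 15 purine genes higher. No count of these small lists was tested against those shares. Against OVA on day 14 the counts of higher and lower genes were 3 and 3 for the purine genes, 1 and 1 for the kinases, 0 and 1 for the mitochondrial exchange, 0 and 2 for AMPK and 0 and 0 for the methyl supply, beside 11% higher and 9.28% lower of all genes. NME4, the kinase called higher there, entered through the EAE group (3.38 RPKM on average, beside 1.85 RPKM in OVA mice). On day 40 none of the tested genes in these 5 lists was called in any comparison.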

How the data were processed

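RNA-Seq of EDL muscle from 30 mice was analysed. The authors made poly(A) libraries with a directional kit, sequenced them in paired ends, used Subread for alignment to mm10 and featureCounts for reads per RefSeq gene, and computed RPKM. The deposited table holds log2(RPKM + 1) with 0.0001 for a gene without a read. The log2 scale was read from the values, and the RPKM were computed back from it. On that scale the summed reads were 0.964 to 1.03 times the estimated library size. They were 16.5 to 26.2 times on a natural log scale and 0.1155 to 0.1366 times for plain RPKM. Of 2747 low values, 96.5% lay within 0.1 of a whole read, beside 94.1% and 83.3% on the other scales. The library size was itself fitted to whole reads, so these shares separate the scales less. The design had assumed RPKM. EdgeR, which the authors used, needs counts and was not run.

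Genes above 3 RPKM on average in at least 1 compared group were tested on log2(RPKM + 0.1) with limma 3.58.1 under R 4.3.3 (lmFit, then eBayes with trend). A model held all 15 mice of its day, or all 30 for day and interaction. This scale understates the changes of low genes. Calls needed a Benjamini-Hochberg adjusted p below 0.05 over all genes tested and, within a day or treatment, a fold change above 1.5. The model was tested on simulated data. Alternatives were a pseudocount of 1, no filter, median-of-ratios or quantile scaling, a replicate block, other sets of mice in the model, no fold threshold and leaving out each mouse.

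The genes named were the 9 genes, the lists of related genes and markers, and the 3 genes most like each member, except for CKMT1, as said beside it. A result that this rule names is not reported here. The members and lists were chosen with earlier results of these data known. Exons and coordinates came from GENCODE vM21 and RefSeq on GRCm38, the assembly of mm10. The depth was estimated from the RPKM of single reads and exon lengths. GMPR, AK6 and HBB-BT did not match a symbol of the table and were not used.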

Additional observations from a re-analysis of the deposited data

Results flagged for a closer look

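The change of the difference between EAE and Ctrl from day 14 to day 40 (limma interaction, on the log2 scale) passed the adjusted p of 0.05 for CKM (0.62), CKMT2 (2.38), CKB (1.46), GAMT (1.82), AK1 (1.34), AMPD1 (0.42) and AMPD3 (-3.22). That of the difference between EAE and OVA passed for CKM (0.53), CKMT2 (2.34), CKB (1.02), GATM (0.51), GAMT (1.10), AK1 (1.04) and AMPD3 (-2.99). The 2 sets share the EAE mice. Of 54 groups of 5 mice examined, 1 mouse stood apart from the other 4 by Dixon's criterion in 4 groups, and chance alone gives about 1 in 20. CKM was 6276 RPKM in Ctrl replicate 3 of day 40, beside 7351 to 7759 RPKM in the others. CKB was 26.5 RPKM in Ctrl replicate 1 of day 14, beside 15.1 to 16.2 RPKM, and 15.5 RPKM in OVA replicate 5 of day 40, beside 11.4 to 12.4 RPKM. AMPD1 was 489.9 RPKM in Ctrl replicate 5 of day 40, beside 412 to 434 RPKM.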

How the results depend on the processing

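The calls of CKMT2, CKB, GAMT, AK1 and AMPD3 on day 14 held under every alternative run for EAE against Ctrl and against OVA. Without a fold threshold, 1 gene passed for EAE against Ctrl on day 40 (SLC6A8), where 25 of 8691 genes were higher and 204 lower. Between the days 2 passed in OVA mice, where 512 of 8648 genes were higher and 294 lower. In Ctrl mice 4 passed, where 1657 of 8788 genes were higher and 1109 lower. With median-of-ratios scaling 3 passed between the days in Ctrl mice, and the call of AMPD1 between the days in OVA mice was lost (0.58). Leaving out 1 mouse, the number called ranged from 5 to 6 for EAE against Ctrl and 5 to 6 against OVA on day 14, from 5 to 7 between the days in EAE and from 1 to 3 in Ctrl mice, and from 6 to 7 in both EAE interactions. Quantile normalization turned the lower AK1 of Ctrl mice on day 40 to 0.03. Other sign changes were in small differences that had passed no threshold: the SLC6A8 interaction of EAE against Ctrl (-0.07) was 0.058 with median-of-ratios scaling and 0.015 with quantile normalization, and ranged from -0.147 to 0.068 leaving out 1 mouse, that against OVA (0.04) from -0.011 to 0.123, and that of AMPD1 against OVA (-0.04) from -0.129 to 0.101, with 0.078 under median-of-ratios scaling. Over all 107 differences of the 9 genes, 24 changed sign somewhere and 0 of them had been called. The causes were not tested. Over all genes, median-of-ratios scaling moved the median in the interaction of EAE and Ctrl from -0.15 to -0.02 and in that of EAE and OVA from -0.16 to -0.04. It gave 1922 genes upward and 2253 downward beside 1487 and 2895, and 1324 and 1441 beside 993 and 2145. Between the days it gave 252 higher and 580 lower beside 441 and 382 in Ctrl mice and 152 and 193 beside 195 and 148 in OVA mice, and for EAE against Ctrl on day 40 it gave 10 and 11 beside 6 and 34. Quantile normalization gave 757 and 963 beside 957 and 805 for EAE against OVA on day 14 and 914 and 827 beside 728 and 1106 between the days in EAE. For OVA against Ctrl on day 14, all 30 mice in 1 model gave 8 and 28 beside 8 and 4.

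Same-numbered mice had a median correlation of -0.07 over 30 pairs. Replicates 1 of day 14 had 0.61 (Ctrl and OVA), 0.51 (Ctrl and EAE) and 0.70 (OVA and EAE). Pairs with different numbers ranged from -0.74 to 0.76. Whether single replicate numbers share a factor was not tested. The replicate block left 6 genes called for EAE against Ctrl on day 14 and changed no call of the 9 genes. Levels are those of whole muscle, the depth is estimated, and with 5 mice a group small differences such as that of SLC6A8 stay within reach of the settings.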
